A study of Mus musculus with 101 samples.

Results

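Chromosome 15 of the mouse was described here across 98 mammary tumours through the 1193 of its genes that the deposited copy-number tables hold and that the GRCm38.p6 RefSeq annotation places on it, of 43513 genes in all. The genes were chosen by their position alone, and 4 further genes of the chromosome were left out and are not reported here. The chromosome itself was selected on its gain in these tumours, and Rad21 and Dscc1 on the frequency of their gain, so the frequencies and levels of gain below are a description. Tests gene by gene are given beside the share of all genes that passed them. The members comprised 655 protein-coding genes, 241 pseudogenes, 199 long non-coding RNA genes and 43 miRNA genes. They reached from Gm7962 at 3.22 Mb to Gm9108, which ends at 103.59 Mb.

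Genomic DNA of the tumours and of 3 spleens had been sequenced at low coverage to read copy number. The titles of the spleens name L1363P, KB1P and KP, and none names KB2P. All 3 came from library series 5289. All tumours came from the mammary gland of conditional mouse models in which the tumour suppressor Trp53 is lost. The KB1(L1363P)P tumours (n = 24) carried the Brca1 missense variant L1363P, in the coiled-coil domain that binds Palb2, and comprised 12 sarcomatoid tumours, 9 carcinosarcomas and 3 adenocarcinomas. The KB1P tumours (n = 31) had lost Brca1 with Trp53 and comprised 29 adenocarcinomas, 1 carcinosarcoma and 1 sarcomatoid tumour. The genotype label is the same for all 31, but 10 of these adenocarcinomas are titled KB1PM, a name the labels do not explain. The KB2P tumours (n = 25) had lost Brca2 with Trp53 and were all adenocarcinomas. The KP tumours (n = 18) had lost Trp53 with neither Brca gene and comprised 10 sarcomatoid tumours, 2 carcinosarcomas and 6 adenocarcinomas. The promoter of the recombinase and the ages of the animals were not given in the sources used here. The labels do not state which tumours share an animal. The titles of 3 pairs of KB1(L1363P)P tumours share a number and may mark the same animal: replicates 6 and 7 and replicates 18 and 19, each a sarcomatoid tumour and an adenocarcinoma, and replicates 23 and 24, both carcinosarcomas. The titles of KB1P replicates 1 and 14, 3 and 12, 10 and 18, and 2 and 11 also share a number. In each of these KB1P pairs the first tumour came from library series 5289 and the second from series D. Whether they mark the same animal is not stated. The p-values measure only the spread between the samples and treat all of them as separate.

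Copy-number gain of a chromosome arises either by missegregation, which adds the whole chromosome, or by breakage and rejoining, which adds a stretch of it and can raise a short stretch to many copies. Tumours that have lost Brca1 or Brca2 cannot repair double-strand breaks by homologous recombination and are known for many breaks within chromosomes. The middle of mouse chromosome 15 carries genes of sister chromatid cohesion, growth control and translation, and its human counterpart is known for frequent gain in breast cancer. Its distal end carries the type II keratins and a Hox cluster.

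Each gene had a log2 segment value, which is the authors' log2 ratio after segmentation, and a copy call, where 2 is neutral. Gain calls began at a segment value of 0.32 and loss calls at -0.42. Genes within 1 segment share 1 value and are not independent measurements. The 3 spleens had neither gain nor loss calls on the chromosome, and their segment values stayed within 0.0023 of 0. In the tumours the standard deviation of the log2 ratio around the segment value, over the members, was 0.0844 at the lowest, 0.106 at the median and 0.20 at the highest. The values come from bulk DNA, in which fewer tumour cells and a smaller gain per cell cannot be told apart. KB2P replicates 10 and 12 had nearly the same profile (r = 0.9861 over 43513 genes, against 0.4743 for the next most alike KB2P pair, and 0.9995 over the members), although they came from different library series, so counts of KB2P tumours and values that moved are also given without replicate 12. KB1P replicate 8 carried the name of the KB1(L1363P)P model in another label and was kept with its genotype. Without it and the 10 tumours titled KB1PM, the share of members gained averaged 26.1% with an SD of 26.1 over the other KB1P tumours, against 36.0% with an SD of 33.1 over all 31. KB2P shared no library series with another genotype, so its series cannot be told apart from its genotype.

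Sequences are shown for D030024E09Rik, one of 5 members that shared the highest count of gained tumours, 30 of 98. They are also shown for Gm41333, which had the highest mean of the members most often gained in KB2P, and for the best known miRNAs among the members. These miRNAs were picked after their values were seen. The first pair are the 250 bases before the annotated start of the long non-coding RNA genes D030024E09Rik (chr15:61774452-61774701, minus strand) and Gm41333 (chr15:62668934-62669183, plus strand), from RefSeq on GRCm38.p6, read 5′ to 3′ along the gene with CG pairs in capitals:
D030024E09Rik: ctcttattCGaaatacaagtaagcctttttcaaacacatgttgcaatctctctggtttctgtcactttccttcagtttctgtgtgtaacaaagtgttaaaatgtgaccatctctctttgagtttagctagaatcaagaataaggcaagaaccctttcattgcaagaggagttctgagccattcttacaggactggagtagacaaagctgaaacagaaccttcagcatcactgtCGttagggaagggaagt
Gm41333: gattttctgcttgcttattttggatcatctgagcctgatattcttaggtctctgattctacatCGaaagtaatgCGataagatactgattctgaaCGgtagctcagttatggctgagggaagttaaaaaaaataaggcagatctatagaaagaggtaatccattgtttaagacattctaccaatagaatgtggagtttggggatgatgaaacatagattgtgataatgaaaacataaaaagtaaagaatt
The D030024E09Rik window held 2 CG pairs and the Gm41333 window 3, against a median of 6 over the 32851 promoter windows of the same length, of which 81.2% held at least 2 and 71.0% at least 3. Copy number says nothing of the activity of these promoters.

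Of the 43 miRNA genes, 28 had mature sequences in the RefSeq table, 49 in all. Let-7b and let-7c are members of a family known to restrain growth genes, miR-33 lies in the Srebf2 gene and acts on cholesterol export, and miR-148b is a broadly expressed miRNA. Their mature sequences are given with the seed, bases 2 to 8, in capitals:
mmu-let-7b-5p: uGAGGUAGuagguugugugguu
mmu-let-7c-5p: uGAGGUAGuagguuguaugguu
mmu-miR-33-5p: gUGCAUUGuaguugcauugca
mmu-miR-148b-3p: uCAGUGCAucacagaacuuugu
The let-7 pair shares its seed, and its genes Mirlet7c-2 and Mirlet7b are neighbours that start at 85706603 and 85707319. Each was gained in 3 KB1(L1363P)P, 7 KB1P, 7 KB2P and 0 KP tumours. Mir33 was gained in 3, 9, 6 and 0 tumours of the same genotypes in that order, and Mir148b, close to the distal end, in 3, 7, 3 and 0. Over the 43 miRNA genes the number of tumours with a gain was 11 at the lowest, 21 at the median and 26 at the highest.

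Gain on chromosome 15 was called in few KB1(L1363P)P tumours, in most KB1P tumours, in about as many KB2P tumours as not, and in no KP tumour. At least 1 member was called gained in 5 of 24 KB1(L1363P)P tumours (20.8%, exact Clopper-Pearson 95% interval 7.13 to 42.2%), 23 of 31 KB1P tumours (74.2%, 55.4 to 88.1%), 13 of 25 KB2P tumours (52.0%, 31.3 to 72.2%) and 0 of 18 KP tumours (0%, up to 18.5%). Without replicate 12 the KB2P count was 12 of 24. Every member was gained in at least 11 of the 98 tumours and none in more than 30, with a median of 21. Against the other autosomes, chromosome 15 had the second highest mean segment value over all tumours, and the highest within KB1(L1363P)P and within KP.

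**Figure D1:**
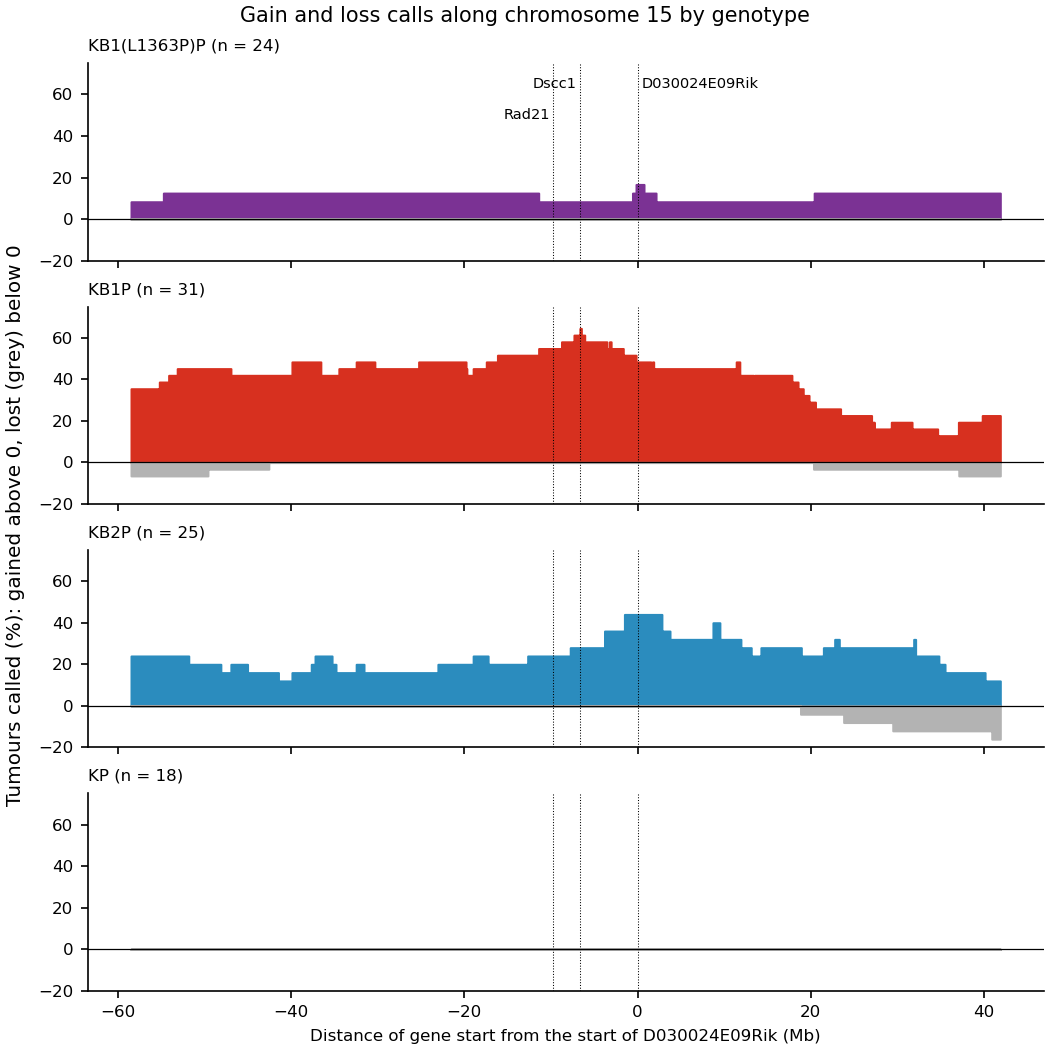
Percent of tumours with a gain call (above 0) or a loss call (grey, below 0) for each chromosome 15 gene, against the distance of the gene's start from that of D030024E09Rik in Mb, in a panel for each genotype; dotted lines mark 3 genes. KB1P peaks at Dscc1 with 20 of 31 tumours, KB2P around D030024E09Rik with 11 of 25, KB1(L1363P)P reaches 4 of 24 and KP shows no call.

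The plot of call frequencies shows that the genotypes peaked at different places. In KB1(L1363P)P the share of gain calls in 5-Mb windows lay between 8.33% and 12.5% along the whole chromosome. In KB1P the windows from 50 to 60 Mb had the highest share of gain calls (57.0% from 50 to 55 Mb and 57.4% from 55 to 60 Mb), and the share was 35.5% at the proximal end and 21.4% from 100 Mb on. In KB2P the highest window lay from 60 to 65 Mb, with 43.2% of gene and tumour pairs gained, against 24.0% at the proximal end and 14% from 100 Mb on. Without replicate 12 these KB2P shares were 41.0%, 25.0% and 14.6%. The difference in place between KB1P and KB2P was not tested.

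Over all tumours the most often gained members were 5 that follow each other in the order of the members, at chr15:61288441-62219451. They were gained in 30 of 98 tumours each. They were the long non-coding RNA genes Gm29904 and D030024E09Rik, the snoRNA gene Gm24696, the pseudogene Gm18154 and the transcribed pseudogene Macroh2a3. None of these 5 encodes a protein in the annotation. The genes left out were not counted, so this is not an account of all genes in the interval. D030024E09Rik (chr15:61699284-61774451) had the highest mean segment value of all members, 0.32 ± 0.51 (SD, n = 98). It was gained in 4 of 24 KB1(L1363P)P tumours (16.7%, exact 95% interval 4.74 to 37.4%), 15 of 31 KB1P tumours (48.4%, 30.2 to 66.9%), 11 of 25 KB2P tumours (44.0%, 24.4 to 65.1%) and 0 of 18 KP tumours (0%, up to 18.5%). Without replicate 12 the KB2P count was 10 of 24 and the median segment value 0.27. Of the 41 tumours with any gain on the chromosome, 30 had gained this gene and 11 had not.

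The D030024E09Rik segment value had a lowest, median and highest value of -0.03, 0.13 and 2.91 in KB1(L1363P)P, -0.0033, 0.32 and 0.90 in KB1P, -0.02, 0.29 and 2.27 in KB2P, and -0.04, 0.09 and 0.27 in KP. The highest values belonged to KB1(L1363P)P replicate 1 and KB2P replicate 17, and all 4 genotypes overlapped in their lower range. The KB1P median of 0.32 lay just under the value of a gain call. That value belonged to KB1P replicate 24, in which 774 members stood at 0.32074, just outside the call. KB1P replicate 15 held 1 member just inside, at 0.32214.

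Dscc1 and Rad21, both genes of sister chromatid cohesion, were most often gained in KB1P. Dscc1 (chr15:55076101-55090491) encodes a subunit of a clamp loader that acts in cohesion at the replication fork. It was gained in 2 of 24 KB1(L1363P)P, 20 of 31 KB1P, 7 of 25 KB2P and 0 of 18 KP tumours. With Deptor and a pair of members between them, it formed the stretch that was most often gained in KB1P, chr15:55076101-55259273. Its segment value had a lowest, median and highest value of -0.03, 0.10 and 0.54 in KB1(L1363P)P, -0.0033, 0.38 and 0.90 in KB1P, -0.24, 0.03 and 0.71 in KB2P, and -0.04, 0.08 and 0.27 in KP. The KB1P median was above every KP value, while single KB1P tumours lay as low as the KP tumours.

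Rad21 (chr15:51962604-51993538) encodes the subunit that closes the cohesin ring. It was gained in 2 of 24 KB1(L1363P)P, 17 of 31 KB1P, 6 of 25 KB2P and 0 of 18 KP tumours. Its segment value had a lowest, median and highest value of -0.03, 0.10 and 0.54 in KB1(L1363P)P, -0.08, 0.34 and 0.90 in KB1P, -0.24, 0.03 and 0.71 in KB2P, and -0.04, 0.08 and 0.27 in KP. In KB1(L1363P)P and KP the lowest, median and highest values of Rad21 and Dscc1 were the same. Without replicate 12, Rad21 was gained in 6 and Dscc1 in 7 of 24 KB2P tumours, and both medians were again 0.03. The median Rad21 and Dscc1 values of KB2P were below those of KB1(L1363P)P and KP, although KB2P had the more frequent gain calls.

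**Figure D2:**
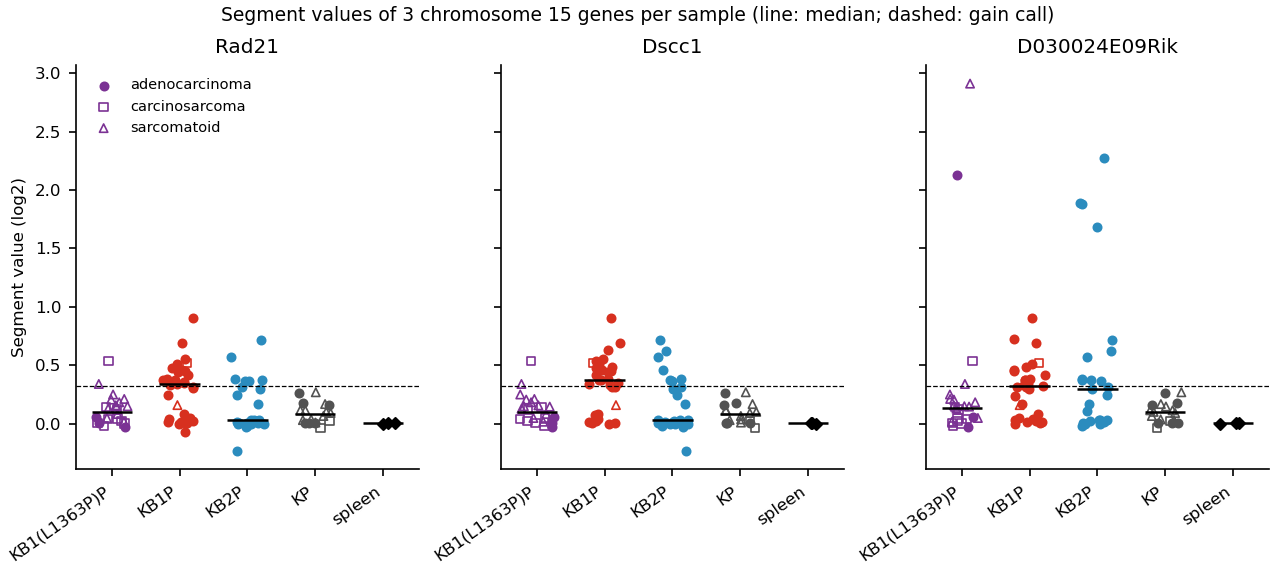
Segment values (log2) of Rad21, Dscc1 and D030024E09Rik in every sample by genotype, with spleens at the right; symbols give the histology, horizontal lines the medians and the dashed line the value of a gain call. KB1P tumours lie highest at Dscc1 (median 0.38), values above 1 occur only at D030024E09Rik, in 2 KB1(L1363P)P and 4 KB2P tumours, and no KP tumour passes the call.

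The listed genes covered the range of the whole chromosome. Among 13 chromosome maintenance genes the median member was gained in 22 tumours, against 21 over all 1193 members, with a range of 13 to 29. The highest were Dscc1 with 29 tumours, Atad2 with 29 and Nsmce2 with 28. Atad2 (58.09 Mb), a chromatin-bound ATPase with a bromodomain, was gained in 2 KB1(L1363P)P, 18 KB1P, 9 KB2P and 0 KP tumours. Nsmce2 (59.37 Mb), a SUMO ligase of the Smc5/6 complex, was gained in 2, 17, 9 and 0 tumours of these genotypes. At the distal end Racgap1, a regulator of cytokinesis, and Smug1, a DNA glycosylase that removes uracil, were gained in 13 tumours each.

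Among 22 growth signalling genes the median was 19.5 tumours. Deptor (55.11 Mb), an inhibitor of the mTOR kinase, was gained in 29 tumours, of which 20 were KB1P. Trib1 (59.65 Mb), a pseudokinase, was gained in 28, and Tnfrsf11b (54.25 Mb), which encodes the secreted decoy receptor osteoprotegerin, in 27. The activin and TGF-beta family receptors Acvrl1 and Acvr1b, near 101 Mb, were gained in 13 tumours each and lost in 5.

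Among 12 translation genes the median was 22 tumours. Mrpl13 (55.53 Mb), a protein of the mitochondrial ribosome, was gained in 28 tumours. Eif3h (51.79 Mb), a subunit of initiation factor eIF3, and Ago2 (73.10 Mb), which carries out silencing by small RNAs, were gained in 25 each. Rpl37, a ribosomal protein gene at 5.12 Mb, was gained in 19 and lost in 2, and the initiation factor gene Eif4b at 102.07 Mb was gained in 13 and lost in 5.

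Among 23 genes of transcription and chromatin the median was 21 tumours. The zinc finger and homeobox genes Zhx1 and Zhx2 were gained in 29 and 27 tumours, and Taf2, a subunit of the general factor TFIID, in 28. The histone deacetylase gene Hdac7 and the vitamin D receptor gene Vdr, near 98 Mb, were gained in 11 tumours each, the lowest number on the chromosome, which neighbouring members shared. Among 23 genes of epithelium and adhesion the median was 20. Mal2, which acts in transport across polarised epithelial cells, Enpp2, which makes the lipid signal lysophosphatidic acid, and Mtss1, which binds membranes and actin, were gained in 28 each. The keratin gene Krt7 and the integrin gene Itga5 were gained in 13 each.

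Among 14 metabolism genes the median was 22. Fbxo32, a ubiquitin ligase subunit, Ndufb9, a subunit of respiratory complex I, and Sqle, which acts in cholesterol synthesis, were gained in 28 tumours each. Ppara, a nuclear receptor of lipid metabolism, was gained in 17, and Pfkm, a glycolytic enzyme, in 11. The 6 list medians lay between 19.5 and 22 tumours, against 21 over all members.

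Gained stretches ranged from short to long in both KB1P and KB2P. With a gain of at least 90% of the members counted as whole, one of 10 to 90% as partial and anything less as little or none, 6 of the 98 tumours had whole, 26 partial and 66 little or no gain. Whole and partial gain were found in 2 and 2 of 24 KB1(L1363P)P tumours, 2 and 18 of 31 KB1P tumours, 2 and 6 of 25 KB2P tumours, and 0 and 0 of 18 KP tumours. Some of these classes turned on values close to the gain call. KB1P replicate 18 and KB2P replicate 3, counted as little or none, held 1 value throughout, 0.317 and 0.316. In KB1P replicate 26, counted as partial, 660 members stood at 0.31958. KB1P replicate 23 and KB1(L1363P)P replicate 20, both counted as whole, held values of 0.335 and 0.338, just above the call. The share of members gained averaged 10.97% with an SD of 28.4 over 24 KB1(L1363P)P tumours. It averaged 36.0% with an SD of 33.1 over 31 KB1P tumours and 23.6% with an SD of 36.2 over 25 KB2P tumours, and it was 0% in all 18 KP tumours. Without replicate 12 whole and partial gain were found in 2 and 6 of 24 KB2P tumours, and the share averaged 24.3% with an SD of 36.8. In each genotype with gains the standard deviation was close to the mean or above it.

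Among tumours with a gain, the longest unbroken run had a lowest, median and highest length of 2.52, 46.7 and 100.4 Mb in 5 KB1(L1363P)P tumours, 4.82, 51.6 and 100.4 Mb in 23 KB1P tumours, and 0.0633, 17.0 and 100.4 Mb in 13 KB2P tumours. The KB2P median was 29.3 Mb without replicate 12. Of the 23 gained KB1P tumours, 3 had gained both the first and the last member, 8 only the first, 4 only the last and 8 neither. In the 13 gained KB2P tumours these counts were 3, 3, 0 and 7, and in the 5 gained KB1(L1363P)P tumours 1, 1, 2 and 1. A single value over the whole chromosome was seen in 18 of 24 KB1(L1363P)P tumours, 4 of 31 KB1P tumours, 7 of 25 KB2P tumours and 15 of 18 KP tumours. Profiles without a step were thus the more frequent kind in KB1(L1363P)P and KP, and the less frequent kind in KB1P and KB2P. In KB1(L1363P)P they were seen in 9 of 12 sarcomatoid tumours, 8 of 9 carcinosarcomas and 1 of 3 adenocarcinomas. In KP these counts were 9 of 10, 1 of 2 and 5 of 6. On the other autosomes, 0.09 to 10.2% of genes were called gained or lost in sarcomatoid KB1(L1363P)P tumours. The share was 0.10 to 6.48% in sarcomatoid KP tumours and 10.4 to 67.4% in KB1P adenocarcinomas. For the profiles without a step and for these shares, genotype and histology were not tested apart.

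**Figure D3:**
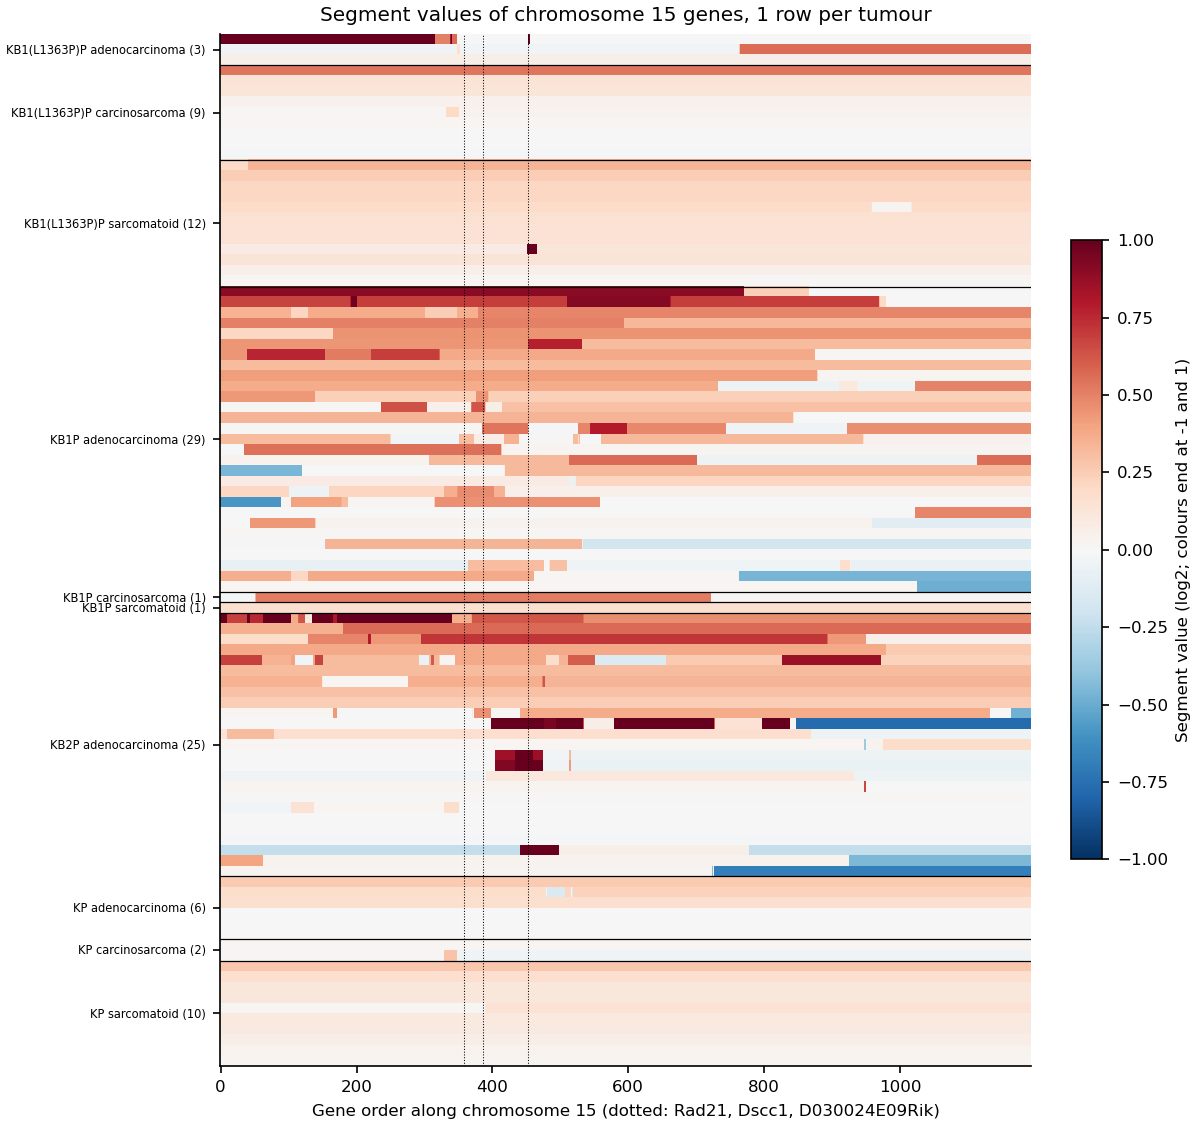
Segment values (log2, colours end at -1 and 1) of the 1193 chromosome 15 genes in gene order from left to right, with a row for each of the 98 tumours, grouped by genotype and histology and sorted by mean within a group; dotted lines mark Rad21, Dscc1 and D030024E09Rik. KB1P rows include long gains with several steps, KB2P rows include short dark stretches at D030024E09Rik, and 15 of 18 KP rows have 1 value throughout.

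Gain is described by histology class in small groups, and a difference in gain calls between the classes was not tested. In KB1(L1363P)P, gain was found in 2 of 3 adenocarcinomas, 1 of 9 carcinosarcomas and 2 of 12 sarcomatoid tumours. In the adenocarcinomas the share of members gained was 0%, 29.5% and 35.9%. Replicate 19 owed its share to the proximal part and replicate 21 to the distal part, and Rad21 and Dscc1 were gained in 0 of the 3. Among the carcinosarcomas replicate 22 had gained 100% of the members at a segment value of 0.54, and the other 8 had no gain. Among the sarcomatoid tumours replicate 20 had gained 96.6% of the members at a mean of 0.33, near the value of a gain call, and replicate 1 had gained 1.34%. In KB1P the carcinosarcoma had gained 56.2% of the members and the sarcomatoid tumour 0%, and in KP no histology class had a gain call.

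**Figure D4:**
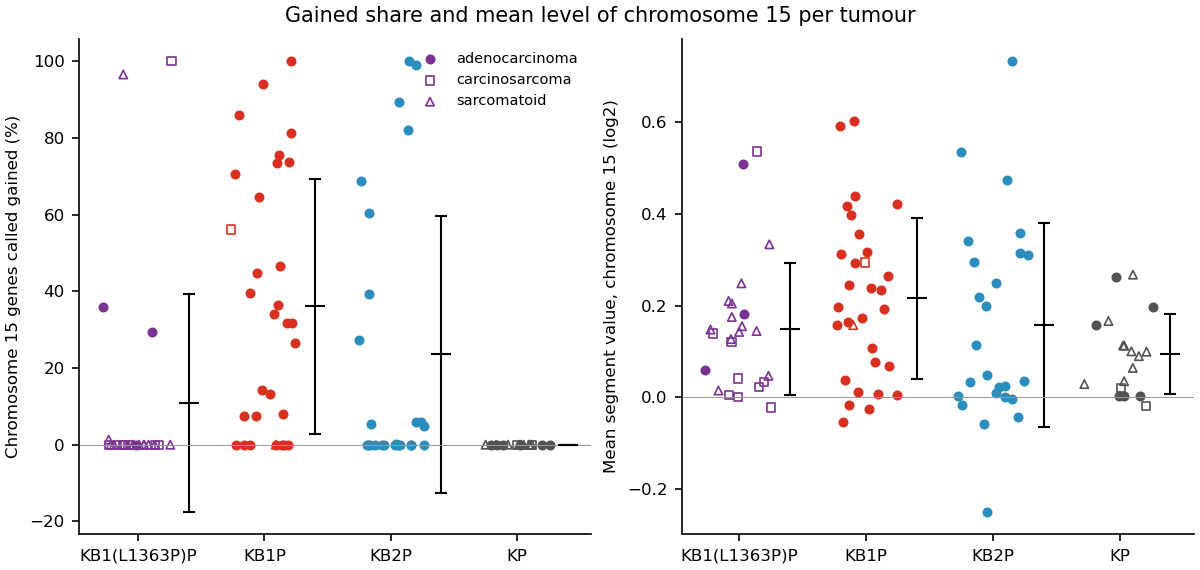
Percent of chromosome 15 genes called gained (left) and mean segment value of the chromosome (right, log2) per tumour by genotype, with symbols for histology and bars for the mean and SD. KB1P tumours average 36.0% gained and KP tumours 0%, while the mean segment values of all 4 genotypes overlap.

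Shifts of the whole chromosome too small to be called were found in each genotype. Tumours with 1 value over the chromosome, a mean above 0.1 and no gain call numbered 9 of 24 in KB1(L1363P)P, 2 of 31 in KB1P, 3 of 25 in KB2P and 6 of 18 in KP. The 9 comprised 7 of 12 sarcomatoid tumours and 2 of 9 carcinosarcomas, and the 6 comprised 4 of 10 sarcomatoid tumours and 2 of 6 adenocarcinomas. The mean segment value of the chromosome averaged 0.15 with an SD of 0.14 over the 24 KB1(L1363P)P tumours, 0.22 with an SD of 0.18 over the 31 KB1P tumours, 0.16 with an SD of 0.22 over the 25 KB2P tumours and 0.09 with an SD of 0.09 over the 18 KP tumours. Among sarcomatoid tumours it averaged 0.16 with an SD of 0.08 in 12 KB1(L1363P)P tumours and 0.11 with an SD of 0.07 in 10 KP tumours. The genotypes overlapped in this mean.

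High-level gain, a segment value of at least 1, was found in 7 tumours, of which 2 were KB1(L1363P)P and 5 KB2P. No KB1P or KP tumour had such a value. In 6 of the 7 it included D030024E09Rik and Macroh2a3. KB1(L1363P)P replicate 1, a sarcomatoid tumour, had a run of 16 members from Gm29904 to Gsdmc, 2.52 Mb long, which rose to 2.91, the value of D030024E09Rik. KB1(L1363P)P replicate 19, an adenocarcinoma, had a run of 316 members from Gm7962 to Trhr, 41.0 Mb long, with values up to 2.62, and a separate run of 3 members at D030024E09Rik at 2.13. Its proximal gain call ran on to Gm49186, over 349 members and 46.7 Mb, and held further values of 1.28 at Gm7508 and from Gm16300 to Gm23530. Rad21 and Dscc1, between the proximal gain and D030024E09Rik, stood at 0.0041.

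In KB2P the high-level runs at D030024E09Rik were 6.88 Mb long in replicate 17 (57 members, up to 3.09), 8.26 Mb in replicate 20 (79 members, up to 2.41), 3.71 Mb in replicate 10 (27 members, up to 1.88) and 3.50 Mb in replicate 12 (26 members, up to 1.68). Replicates 10 and 12 are the nearly identical pair, so that without replicate 12 the count of KB2P tumours at this level was 3 of 24 at D030024E09Rik and 4 of 24 anywhere on the chromosome. Replicate 20 further held high-level runs from Gm2895 to Dennd3, from Fam83h to Gm19141 and from A4galt to Mir1249, and a loss from 85.5 Mb to the end. Replicate 25 had its high-level runs in the proximal 48.8 Mb, up to 2.42, among them 1 of 170 members from Ctnnd2 to Gm23530, 18.6 Mb long.

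Genes other than those at D030024E09Rik reached a value of at least 1 in fewer tumours. Atp6v1c1 (38.66 Mb), a subunit of the vacuolar proton pump, and the long non-coding RNA gene Gm10373 (43.43 Mb) did so in 2 tumours each. Trib1 and its neighbour Gm20150 lay at the proximal edge of the runs of KB2P replicates 10 and 12. Farther along the chromosome, the long non-coding RNA gene 4930449C09Rik was gained in 28 tumours and reached a value of at least 1 in 3, and Gm31342 was gained in 24 and reached it in 2.

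Losses were rare and lay at the ends. Of the 98 tumours 8 had any loss, 4 in KB1P and 4 in KB2P, and no value was at or below -1. The 607 members that were never lost formed an unbroken stretch in the middle of the chromosome, which included Rad21, Dscc1 and D030024E09Rik. KB1P replicates 10 and 24 had lost the proximal 8.86 and 15.8 Mb of the placed genes, and KB1P replicates 17 and 29 the distal 4.78 and 21.5 Mb. The KB2P losses of replicates 1, 20, 23 and 24 all ran to the last member and were 23.0, 18.1, 0.882 and 12.4 Mb long. Smug1, Itga5 and Gm9108 were lost in 6 tumours each, of which 2 were KB1P and 4 KB2P, and no member was lost in more.

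Gain calls were found in several library series. In KB1P, Dscc1 was gained in 6 of 8 tumours of series 2766, 7 of 10 of series 5289 and 6 of 11 of series D, and the share of members gained was 60.2% ± 40.4, 29.5% ± 28.4 and 26.2% ± 26.8 (SD) in these series. Most KB1P tumours of series 2766 are titled KB1PM, most of series D are not, and those of series 5289 never are. Series and title were not tested apart. In KB2P, D030024E09Rik was gained in 9 of 20 tumours of series 3196 and 2 of 5 of series 3499. Within series 5289, which holds 3 genotypes, any gain was found in 3 of 20 KB1(L1363P)P, 8 of 10 KB1P and 0 of 3 KP tumours. Dscc1 was gained there in 1, 7 and 0 tumours of these genotypes. All 10 sarcomatoid KP tumours came from series 5750, so for them series and histology cannot be told apart.

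The genotypes were compared gene by gene to ask where copy number differed between the variant tumours and the other models. Segment values of all 43513 genes were fitted with limma, with Benjamini-Hochberg adjustment over all of them, and a gene was called at an adjusted p under 0.05. The comparisons share groups: the KB1P tumours enter both KB1P comparisons below, the KP tumours both comparisons with KP, and so on, so their results are not independent of each other. Since the chromosome was selected on gain in these tumours, the calls are given beside the share of all genes called and nothing is read from them beyond that.

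KB1(L1363P)P was lower than KB1P at 119 of the 1193 members (9.97%) and higher at 0, while 10.9% of all genes were called lower. Of the 119, 74 lay between Gm19303 and Ndufb9, chr15:51231640-58939516, a stretch that includes Rad21 and Dscc1, with differences from -0.23 to -0.16. The other 45 lay between 72.6 and 75.9 Mb and included the signalling kinase gene Ptk2, Ago2 and the elongation factor gene Eef1d. Dscc1 had the largest difference, -0.23 ± 0.06 (SE), tied with the other 3 members of its stretch up to Deptor, with means of 0.12 in KB1(L1363P)P and 0.34 in KB1P. Rad21 had means of 0.12 in KB1(L1363P)P and 0.29 in KB1P, a difference of -0.17 ± 0.05 (SE). D030024E09Rik had means of 0.32 in KB1(L1363P)P and 0.30 in KB1P, a difference of 0.02 ± 0.13 (SE) that was not called.

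Within library series 5289, 50 members (4.19%) were called lower in KB1(L1363P)P than in KB1P, while 6.28% of all genes were, and Rad21 lost its call there. Without the tumours titled KB1PM and KB1P replicate 8, 33 members (2.77%) were called lower, while 6.31% of all genes were, and Rad21 lost its call again. In a fit of the adenocarcinomas alone limma called 0 members and 0% of all genes, so that Rad21 and Dscc1 both lost their calls. In that fit 7.54% of members and 4.17% of all genes had an unadjusted p under 0.05.

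KB1P was higher than KP at 154 members (12.9%) and lower at 0, while 9.02% of all genes were called higher. The largest called stretch ran from Gm25007 to Mtss1, chr15:48551308-59083956, and held 84 members with differences from 0.17 to 0.26. Dscc1 had means of 0.34 in KB1P and 0.09 in KP, a difference of 0.26 ± 0.06 (SE). Rad21 had means of 0.29 in KB1P and 0.09 in KP, a difference of 0.20 ± 0.06 (SE). The other called members lay between 67.2 and 75.9 Mb. Within series 5289, where KP had 3 tumours, 22 members (1.84%) were called higher, while 1.87% of all genes were, and Rad21 lost its call. Without the tumours titled KB1PM and KB1P replicate 8, 46 members (3.86%) were called higher, while 5.75% of all genes were. In a fit of the adenocarcinomas alone limma called 0 members and 1.03% of all genes, so that Rad21 and Dscc1 lost their calls. In that fit 1.76% of members and 8.92% of all genes had an unadjusted p under 0.05.

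KB2P was higher than KP at 19 members (1.59%) and lower at 0, while 7.89% of all genes were called higher. The 19 lay on both sides of D030024E09Rik: 11 from Gm46507 to Gm29904, chr15:60295788-61331370, and 8 from Gsdmc4 to Gm30563, chr15:63891140-64436884. Gsdmc4, a gene of the gasdermin C family, had means of 0.47 in KB2P and 0.10 in KP, a difference of 0.38 ± 0.12 (SE). Asap1, which regulates small GTPases of the Arf family and the actin skeleton, was the listed gene among them. D030024E09Rik itself had a difference of 0.40 ± 0.15 (SE) and was not called. The 4 genotypes share a variance in this fit. The standard deviations in KB2P and in KB1(L1363P)P were 0.68 and 0.70 at D030024E09Rik, and 0.74 and 0.13 at Gsdmc4. Between the called stretches, 4930449C09Rik had the same difference as Gsdmc4, 0.38, and was not called. Its standard deviation in KB1(L1363P)P was 0.58. With only the KB2P and KP tumours in the limma fit, 0 members and 8.68% of all genes were called, and 6.45% of members and 22.7% of all genes had an unadjusted p under 0.05. Without replicate 12, 19 members (1.59%) were called higher in KB2P than in KP, while 6.71% of all genes were.

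KB1(L1363P)P was lower than KB2P at 19 members (1.59%) and higher at 0, while 9.42% of all genes were called lower. This comparison shares the KB2P tumours with the one before. Its calls were 11 members from Gm46507 to Gm29904, with differences from -0.35 to -0.31, and 8 from Gsdmc4 to Gm30563, with differences from -0.36 to -0.33. Gsdmc4 had means of 0.12 in KB1(L1363P)P and 0.47 in KB2P, a difference of -0.36 ± 0.11 (SE). Its neighbour Asap1 had a median of 0.12 in KB1(L1363P)P and 0.29 in KB2P. Without KB2P replicate 12, 18 members (1.51%) were called, while 12.2% of all genes were called in either direction. The highest KB2P tumour reached 3.00 at Gsdmc4, and the limit on KB2P library series given above holds for both KB2P comparisons. The plot of genotype differences shows the called members along the chromosome.

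**Figure D5:**
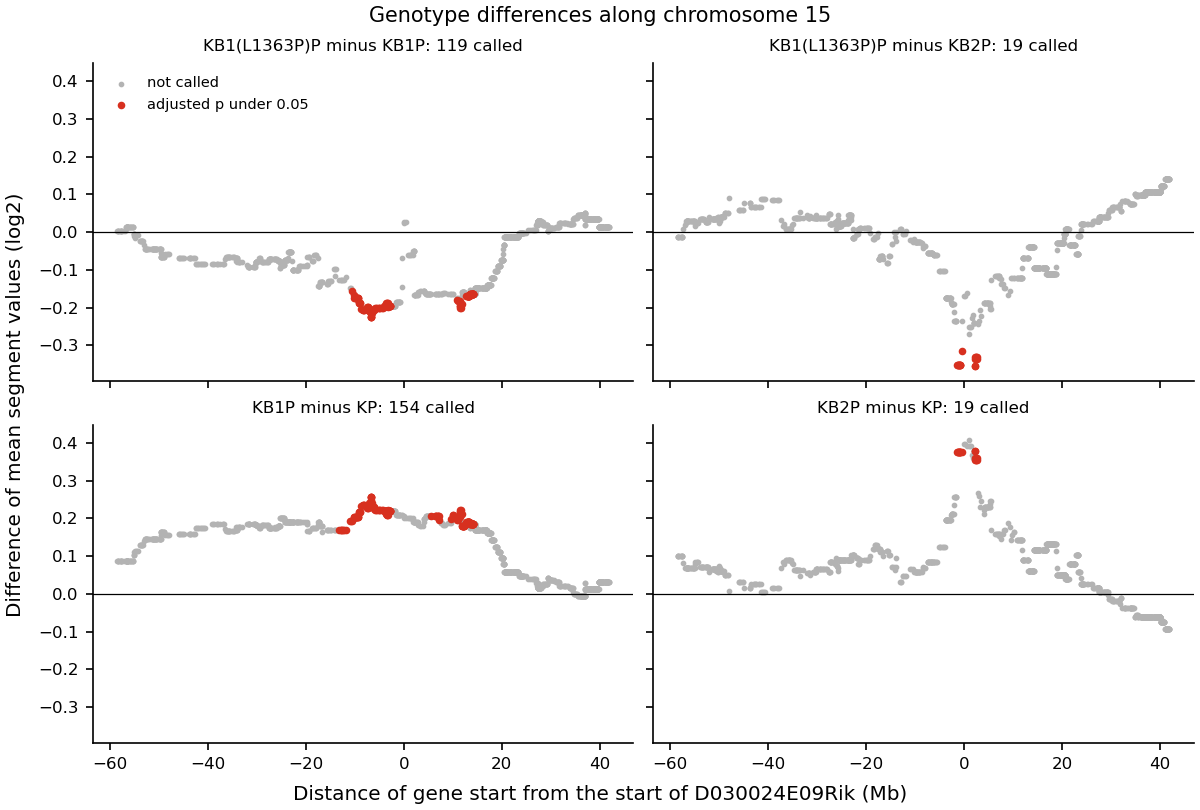
Difference of mean segment values (log2, first genotype minus the second) for each chromosome 15 gene against the distance of its start from that of D030024E09Rik in Mb; red points passed an adjusted p of 0.05 in limma. The 2 comparisons of KB1P with called members include Rad21 and Dscc1, and those of KB2P have 19 called members each, on both sides of D030024E09Rik.

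KB1(L1363P)P against KP gave 0 called members, as it gave 0% of all genes. Without adjustment limma counted 0 members and 15 of all genes under 0.05, and 0 members were called by Fisher's exact test on gain calls. The differences over the members lay between 0.02 and 0.23, all higher in KB1(L1363P)P. KB1P against KB2P gave 0 called members, while 1.36% of all genes were called in either direction. Here limma counted 109 members (9.14%) and 16.2% of all genes under 0.05 without adjustment. Fisher's exact test called 0 members and 4 of all genes. Without adjustment it counted 256 members, for which the share of all genes was not counted. At Dscc1 the means were 0.34 in KB1P and 0.17 in KB2P, a difference of 0.17 ± 0.05 (SE), and at D030024E09Rik 0.30 in KB1P and 0.49 in KB2P, a difference of -0.19 ± 0.13 (SE).

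The lists were chosen with earlier results of these tumours known, and their counts are given as a description. In KB1(L1363P)P against KB1P, 4 of 13 chromosome maintenance genes were called lower, namely Rad21, Dscc1, Atad2 and Mtbp, which binds Mdm2. In the same comparison 3 of 22 growth signalling genes, 4 of 12 translation genes, 4 of 23 transcription and chromatin genes, 4 of 23 genes of epithelium and adhesion and 3 of 14 metabolism genes were called lower, and none higher, beside 9.97% of all members and 10.9% of all genes. In KB1P against KP the counts called higher were 4, 3, 4, 5, 5 and 3 of the same lists, beside 12.9% of all members and 9.02% of all genes. In both KB2P comparisons with called members Asap1 was the 1 listed gene called.

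Comparisons within histology gave 0 called members. They were fitted on all 98 tumours, in genotype-by-histology groups that share a variance, unlike the fits of the adenocarcinomas alone given above. Sarcomatoid tumours against carcinosarcomas within KB1(L1363P)P, where 0.0919% of all genes were called, gave 0 members and 5.07% of all genes at an unadjusted p under 0.05 in limma, and Dscc1 had means of 0.16 in the sarcomatoid tumours and 0.10 in the carcinosarcomas. KB1P adenocarcinomas against KP adenocarcinomas, where 1.88% of all genes were called, gave 62 members (5.2%) and 12.8% of all genes at an unadjusted p under 0.05. There Dscc1 had means of 0.34 in KB1P and 0.10 in KP, with a difference of 0.24 ± 0.09 (SE), close to the 0.26 found over all histologies. KB2P adenocarcinomas against KP adenocarcinomas, where 0.00919% of all genes were called, gave 19 members (1.59%) and 9.11% of all genes at an unadjusted p under 0.05.

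The 3 KB1(L1363P)P adenocarcinomas against the KB1P adenocarcinomas, where 0.882% of all genes were called, gave 334 members (28%) and 12.6% of all genes at an unadjusted p under 0.05, and 0 members after adjustment. Dscc1 had means of 0.01 in KB1(L1363P)P and 0.34 in KB1P, a difference of -0.33 ± 0.13 (SE). The calls here turned on single tumours: without replicate 7, 41 members (3.44%) were called higher in KB1(L1363P)P, without replicate 21, 117 (9.81%) were, and without replicate 19, 0. The shares of all genes called higher were then 0.749%, 0.388% and 0.632%. Only limma was run on these histology comparisons.

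Rad21 was set against the percent of genes on the other autosomes that were called gained or lost, a value the choice of genes did not use. That share had a lowest, median and highest value of 10.4, 37.9 and 67.4% in 29 KB1P adenocarcinomas and 18.6, 33.1 and 66.5% in 25 KB2P adenocarcinomas. In KB1P Pearson's r was 0.317 and Spearman's rho 0.289 (two-sided permutation p = 0.0934 and 0.130, adjusted p = 0.259 each over 4 values). In KB2P r was -0.0129 and rho 0.0738 (permutation p = 0.951 and 0.728, adjusted p = 0.951 each), and without replicate 12 they were 0.0232 and 0.125. With genes counted as altered beyond a segment value of 0.2 in either direction, r and rho were 0.321 and 0.286 in KB1P and 0.279 and 0.308 in KB2P (permutation, adjusted p = 0.177 each). Without the 2 tumours farthest from the median share r was 0.334 in KB1P and 0.104 in KB2P. Within KB1P library series r was 0.630 in series 2766 (n = 8), -0.195 in series 5289 (n = 8) and 0.226 in series D (n = 11), and within KB2P series 3196 it was 0.0323 (n = 20), with adjusted p from permutation (exact for n = 8) of 0.684 to 0.894. No relation passed the test.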

How the data were processed

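DNA copy number was read by low-coverage sequencing in 98 tumours and 3 spleens. Per the labels' protocols the authors aligned reads with BWA, counted them in 20-kb bins and corrected the counts for GC content and mappability. The submitters' processing notes list BWA 0.7.17, SAMtools 1.10, cutadapt 2.5, Picard and the mouse build mm10, whereas the labels' protocol gives a human build. The authors deposited, per gene symbol, log2 ratios and the log2 values of their segments. The deposited copy score is the authors' whole number per gene, 2 when neutral, and in 99.99% of cells it was the rounded copy number that the segment value gives. How segments were made, what the ratios are relative to and how bins were assigned to genes is not given in the sources used here, and read depth is unknown.

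Positions came from the GRCm38.p6 RefSeq gene table, which placed 32692 of 43513 symbols, 32661 of them by the current symbol. Gain was a copy score above 2 and loss a score below 2, and runs are neighbouring members with the same call. Genotypes and genotype-by-histology groups were compared on the segment values of all 43513 genes in 98 tumours, with limma (version 3.58.1, R version 4.3.3) and Benjamini-Hochberg adjustment. Fisher's exact test on gain calls was the other test. The Rad21 relation used 100000 resamples, or exact enumeration under 10 tumours, in Python 3.11.15 with SciPy 1.17.1. limma and Fisher's exact test were first run on the authors' values with genotypes shuffled and changes planted in a set of genes. The outcome of those runs is not given here.

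The members and the gene lists were chosen with earlier results of these data known. The text names Rad21, Dscc1, the most gained members, the first and last member, the called members with the largest differences, the 3 most and 2 least often gained genes of each list, and up to 6 genes with high-level values. Asap1, Mtbp, Ptk2, Eef1d and the miRNAs were named after their values were seen. The 6 lists cover chromosome maintenance, growth signalling, translation, transcription and chromatin, epithelium and adhesion, and metabolism. Alternatives covered values before segmentation, centring, thresholds, histology, library series, uncertain labels (10 tumours titled KB1PM and 1 KB1P tumour with a conflicting label), the alike KB2P profiles and single tumours. Replicate numbers follow the order of the records and do not pair samples.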

Additional observations from a re-analysis of the deposited data

Results flagged for a closer look

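KB1(L1363P)P replicate 22 stood apart from the other 8 carcinosarcomas of its genotype in all 5 values examined. Its mean segment value over chromosome 15 was 0.54, against -0.02 to 0.14 in the others, and 100% of the members were called gained, against 0% in the others. Its segment values at Rad21, Dscc1 and D030024E09Rik were each 0.54, since the whole chromosome held 1 value. The gap to the nearest other tumour was 71.1% of the group's range for the levels. Dixon's test at its 95% value was applied to 13 sets of values in groups of 4 to 10 tumours, and chance passes about 1 set in 20. The 5 values of this tumour are 1 event, because they share a segment.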

How the results depend on the processing

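D030024E09Rik, at 61.7 Mb, was the most often gained member under every threshold and centring tried, with ties broken by the higher mean. It counted 43 tumours at a segment value of at least 0.2 and 15 at one of at least 0.5, and it had the highest mean. The gained share of KP was 14.4% at a segment value of at least 0.2, against 0% by the calls. With 80% of members in place of 90%, whole-chromosome gain was found in 4 KB1P and 4 KB2P tumours, against 2 each. The counts of called members depended on the setting. KB1(L1363P)P minus KB1P gave 119 members, against 66 on log2 ratios before segmentation, 47 after centring, 0 in adenocarcinomas, 50 within series 5289, 50 with series as a random block, 33 without uncertain labels and 462 by Fisher's exact test. The shares of all genes called in either direction were 13.5%, against 11.5%, 14.1%, 0%, 9.76%, 9.22% and 11.1% in the same order. Fisher's exact test called 9236 of all 43513 genes. KB1P minus KP gave 154, against 90, 51, 0, 22, 73, 46 and 732 under these settings, and 283 with only the 2 genotypes. The shares of all genes were 13.5%, against 11.2%, 11.7%, 1.03%, 1.96%, 9.82% and 11.7%, and 14.8% with only the 2 genotypes. Fisher's exact test called 5391 of all genes here. KB1(L1363P)P minus KB2P gave 19, against 49 on log2 ratios (27 higher and 22 lower), 0 in adenocarcinomas, 10 with the block, 10 with only the 2 genotypes and 0 by Fisher's exact test. The shares of all genes were 12.8%, against 12.1%, 0%, 5.65% and 14.5%, and 4959 of all genes by Fisher's exact test. KB2P minus KP gave 19, against 31 on log2 ratios, 0 in adenocarcinomas, 11 with the block, 0 with only the 2 genotypes and 36 by Fisher's exact test. The shares of all genes were 12%, against 11.8%, 0.0529%, 6.96% and 8.68%, and 3314 of all genes by Fisher's exact test. KB1P minus KB2P gave 0, against 3 on log2 ratios, while 1.36% and 2.3% of all genes were called. The adenocarcinoma comparison of KB1(L1363P)P with KB1P gave 0, and 0 to 117 without 1 of the 3 variant tumours. The causes were not tested. KB1(L1363P)P minus KP gave 0 under each setting run. The 4 histology comparisons gave 0 on log2 ratios, after centring and in the settings chosen after the data were seen, which were series 5289 alone, no uncertain labels and no KB2P replicate 12. Leaving that tumour out of the KB2P gained share and the Rad21 relation was also chosen then. For single genes (Rad21, Dscc1, D030024E09Rik and Gsdmc4), 14 combinations of gene, comparison and setting lost a call and 3 gained one. The other 223 kept their state, and these include the combinations called neither in the main fit nor in the alternative. They are therefore no measure of how stable the calls were. No called difference changed sign. No paired analysis was possible because the replicate numbers do not pair tumours. Depth is unknown, so narrow gains under the bin and gene spacing cannot be resolved.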
